A study of Homo sapiens with 4 samples.

Results

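The genes described here are receptors of the tumour necrosis factor (TNF) family that Hodgkin lymphoma cells are known for, together with the TRAF adaptor proteins that bind their tails. The list names 10 genes: TNFRSF8 (CD30), CD40, TNFRSF17 (BCMA), TNFRSF13B (TACI), TNFRSF11A (RANK), TNFRSF1B (TNF receptor 2), FAS, TRAF1, TRAF2 and TRAF3. Every probe set that the platform table assigns to exactly 1 of them was taken, which gave 19 probe sets of 9 genes out of 54613 probe sets of 19775 named genes. No probe set is paired with TRAF2 in that table, so TRAF2 is not analysed here.

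RNA came from KM-H2, an established cell line of Hodgkin lymphoma, and was measured on 4 Affymetrix arrays. A pair of arrays held RNA of KM-H2 cells with small interfering RNA against PTPN1 (PTPN1 knockdown), and the other pair RNA of KM-H2 cells with a non-silencing control. Dose and time of the transfection are not given in the labels. The study's own description calls the arrays of a group technical replicates, so SDs and p-values measure the spread between arrays and not between cultures, and 2 arrays per group limit the precision. Values are log2 RMA expression values, in which a difference of 1 is a doubling of signal. Array medians lay between 5.10 and 5.12.

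TNF receptors are membrane proteins that cluster when a ligand, usually carried by a neighbouring T cell or myeloid cell, binds them. CD30, CD40, RANK and TNF receptor 2 have no enzyme of their own and recruit TRAF proteins, which pass the signal to the NF-kB and MAP kinase pathways. TRAF2 and TRAF3 hold the kinase NIK (MAP3K14) at a low level until a receptor is engaged, and FAS differs from the other listed receptors in carrying a death domain that recruits FADD and caspase-8. Hodgkin cells are identified in tissue by CD30 on their surface, and their NF-kB activity is constitutive. PTPN1 encodes a tyrosine phosphatase that removes phosphate from JAK kinases, so the comparison asked how transcripts of these cells differ when it is reduced.

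PTPN1 itself read 7.00 and 7.36 in the knockdown arrays, against 8.16 and 8.40 in the non-silencing arrays at its brightest probe set. The groups did not overlap, and the log2 difference was -1.10 (SE 0.18). Its unadjusted p in limma was 0.00141, and it did not pass the threshold after adjustment over all probe sets. The other 3 PTPN1 probe sets, all below 5.11 (the median over all probe sets), differed by 0.01, -0.03 and -0.07. All 8 measured Hodgkin cell markers, which include TNFRSF8 itself, IRF4, EBI3, FSCN1 and FUT4 (the enzyme that makes CD15), lay above that median. Their mean was 9.48 and 9.10 in the knockdown arrays, against 8.96 and 8.81 in the non-silencing arrays. CCL17 (0.97) and EBI3 (0.71) had the largest differences among them, and the rest lay between 0.15 and 0.34. Of other lineages, 4 of 6 B cell, 3 of 6 T cell and 2 of 5 plasma cell markers were at or above the median. So were 2 of 5 myeloid and 4 of 6 stromal or epithelial markers. Of all 19775 named genes, 12601 besides TNFRSF11A had their brightest probe set there, so these counts set no lineage apart. The T cell gene CD3D read 10.36 and 9.76 in knockdown and 10.23 and 9.89 in non-silencing. The labels name the cell line alone as the source, and the arrays measure bulk RNA, in which fewer cells of a type and less RNA per cell cannot be told apart. Arrays with the same number also had similar 3' minus 5' beta-actin control signals, whose dependence on RNA integrity or on amplification was not tested. The beta-actin signal was 1.33 and 0.97 in knockdown arrays 1 and 2, and 1.31 and 0.97 in non-silencing arrays 1 and 2. The GAPDH control moved the same way by less, with 0.29 and 0.26 in knockdown and 0.32 and 0.21 in non-silencing.

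TRAF3 and CD40 were the members whose brightest probe sets were higher in both knockdown arrays than in both non-silencing arrays, by about 0.2 to 0.4 on the log2 scale, and no member passed the test. In limma, 0 of the 19 member probe sets had an adjusted p under 0.05, as did 0 of all 54613 (0%). At an unadjusted p under 0.05 the counts were 0 member probe sets and 1364 of all probe sets (2.50%). An unmoderated linear model called 0 of all probe sets. Each member had a limma adjusted p of 1 after rounding, and the lowest unadjusted p in limma was 0.114, at TRAF3. An exact permutation of 2 against 2 arrays cannot give a two-sided p below 0.333. No member probe set had a mean difference of 1 or more, which 0.370% of all probe sets had. PTPN1, the silenced gene, was not called either, so a missing call does not show that a transcript was unchanged. The values below therefore describe these arrays.

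The groups were apart with knockdown higher for 5 member probe sets, 26.3% of the 19, where 13.4% of all probe sets were so placed. These 5 belong to 3 genes, CD40, TRAF1 and TRAF3, and probe sets of 1 gene read the same RNA. With knockdown lower, 0 member probe sets had the groups apart, against 15.3% of all. These counts rest on 4 arrays: with a single array left out, which makes separation easier, 7 were apart and higher in every case, and 2, 8, 7 and 3 were apart and lower without knockdown arrays 1 and 2 and non-silencing arrays 1 and 2 in turn. The median difference was -0.04 over the 19 member probe sets, against -0.005 over all, and the range was from -0.45 to 0.39. The median size of the difference regardless of sign was 0.21 for members and 0.10 for all probe sets.

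**Figure D1:**
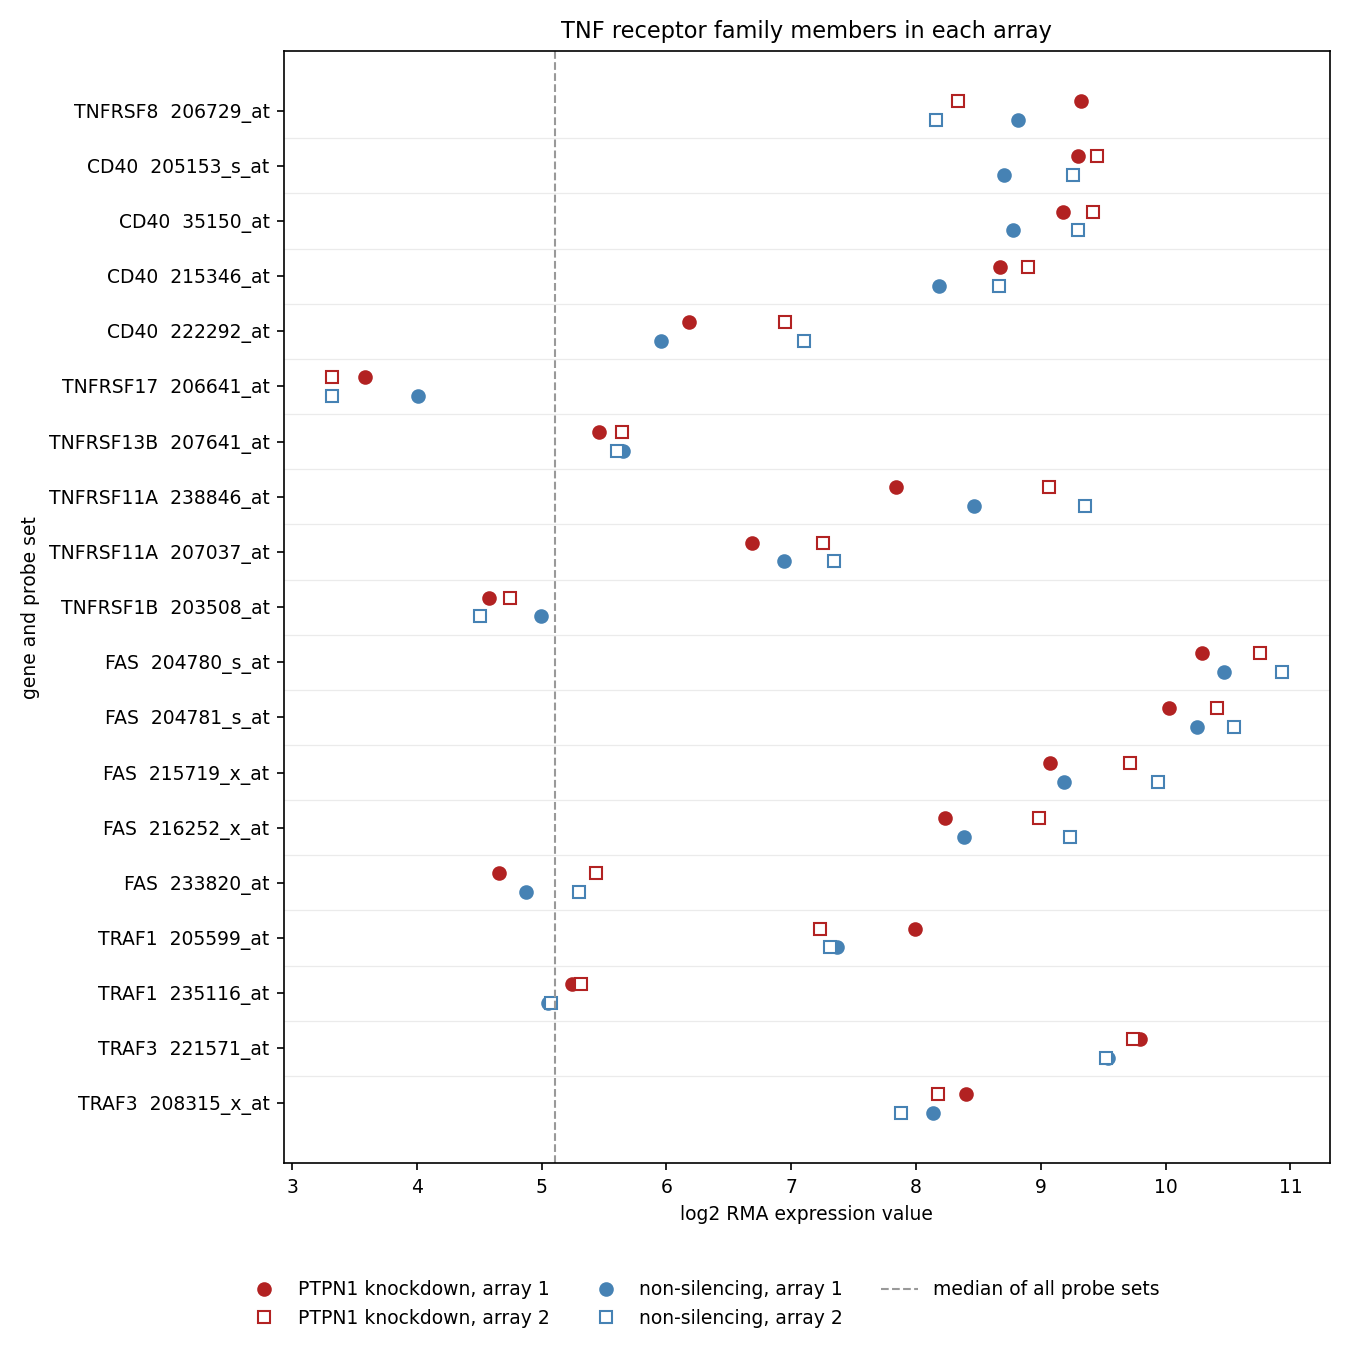
Log2 RMA expression value (horizontal axis) of the 19 member probe sets (rows) in each array. Red symbols are PTPN1 knockdown and blue symbols non-silencing, circles are arrays numbered 1 and open squares arrays numbered 2, and the dashed line is the median of all probe sets (5.11). Levels of different probe sets cannot be ranked against each other. For FAS and TNFRSF11A the symbol shape separates the values more than the colour, while for both TRAF3 probe sets red lies right of blue.

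TNFRSF8, the gene of CD30, has a single probe set. It read 9.32 and 8.33 in knockdown arrays 1 and 2, against 8.82 and 8.16 in non-silencing arrays 1 and 2. The groups overlapped, since non-silencing array 1 lay above knockdown array 2. The mean log2 difference was 0.34 (SE 0.38, limma adjusted p = 1), 0.50 within number 1 and 0.18 within number 2. It was -0.15 without knockdown array 1, without knockdown array 2 it was 0.83, and without non-silencing arrays 1 and 2 in turn it was 0.67 and 0.01. The larger gap ran between the array numbers: TNFRSF8 read lower in both arrays numbered 2 than in both numbered 1, with a mean difference of -0.82.

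CD40, the receptor through which helper T cells stimulate B cells, is read by 4 probe sets. The brightest (205153_s_at) stood at 9.30 and 9.45 in the knockdown arrays, against 8.71 and 9.26 in the non-silencing arrays. The groups did not overlap, though knockdown array 1 and non-silencing array 2 nearly met. Its mean difference was 0.39 (SE 0.21, limma adjusted p = 1), made up of 0.59 within number 1 and 0.19 within number 2, and it ranged from 0.12 to 0.67 when single arrays were left out, with the lowest value without non-silencing array 1 and the highest without non-silencing array 2. The probe sets 215346_at and 35150_at gave 0.36 and 0.26, the first with the groups apart and the second overlapping. The fourth, 222292_at, behaved otherwise: it read 6.18 and 6.95 in knockdown and 5.96 and 7.10 in non-silencing, a difference of 0.03 with opposite signs within the array numbers (0.22 and -0.15). By the mean of all 4 probe sets CD40 differed by 0.26.

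TNFRSF17 and TNFRSF13B encode BCMA and TACI, receptors of the B cell survival ligands BAFF and APRIL, and TNFRSF13B lay just above the median of all probe sets and TNFRSF17 below it. TNFRSF17 read 3.58 and 3.32 in the knockdown arrays, against 4.01 and 3.32 in the non-silencing arrays, all below the median of all probe sets. Only non-silencing array 1 stood above the rest, and the mean difference of -0.22 became 0.13 without it. BCMA is characteristic of plasma cells, and the mean of their 5 measured markers was 5.31 and 5.24 in knockdown and 5.90 and 5.30 in non-silencing. JCHAIN, the joining chain of secreted antibodies, made up most of that gap, with 2.51 and 2.41 in knockdown and 5.27 and 2.70 in non-silencing. Without JCHAIN the mean of the other 4 was 6.01 and 5.94 in knockdown and 6.06 and 5.95 in non-silencing. Of these, XBP1 and MZB1 were also highest in non-silencing array 1, by smaller margins. PRDM1 was highest in non-silencing array 2, and SDC1 was lowest in non-silencing array 1. The part of plasma cell transcripts in the TNFRSF17 value was not tested. TNFRSF13B read 5.46 and 5.64 in knockdown and 5.66 and 5.61 in non-silencing, which overlap, and its difference was -0.08 (SE 0.14).

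TNFRSF11A, the gene of RANK, known for its role in osteoclasts and in dendritic cells, had the largest mean difference in size among the members. Its brighter probe set (238846_at) stood at 7.84 and 9.07 in the knockdown arrays, against 8.47 and 9.35 in the non-silencing arrays. The groups overlapped widely because both arrays numbered 2 were above both arrays numbered 1. The mean difference was -0.45 (SE 0.48, limma adjusted p = 1), with -0.62 within number 1 and -0.29 within number 2. The second probe set (207037_at) differed by -0.17, with -0.26 and -0.09 within the numbers. Without knockdown array 1 the brighter probe set gave 0.16, without knockdown array 2 it gave -1.07, and without non-silencing arrays 1 and 2 in turn -0.90 and -0.01.

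The 3 genes whose deviations from their own 4-array mean were nearest to those of TNFRSF11A (238846_at), among 12601 other genes at or above the median, were CDK19, FEZ1 and PPARGC1A. Their root mean square distances over the 4 arrays were 0.035, 0.036 and 0.044 on the log2 scale. All 3 shared its higher values in the arrays numbered 2, by 1.12, 1.11 and 1.04. The distance between the 2 probe sets of TNFRSF11A itself was 0.32, so nearness over 4 arrays that share their numbers says little about any gene.

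TNFRSF1B, the gene of TNF receptor 2, read 4.58 and 4.75 in knockdown and 5.00 and 4.51 in non-silencing, below the median of all probe sets in every array. Its groups overlapped, and the difference of -0.09 (SE 0.20) was -0.42 within number 1 and 0.24 within number 2. It was 0.16 without non-silencing array 1.

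FAS, the death receptor, was read by 5 probe sets, 4 of them bright. The brightest (204780_s_at) stood at 10.29 and 10.75 in the knockdown arrays, against 10.47 and 10.93 in the non-silencing arrays. Knockdown was lower within each array number by the same amount, -0.18 and -0.18, yet the groups overlapped because the arrays numbered 2 were the higher ones in both groups. The mean difference was -0.18 (SE 0.24, limma adjusted p = 1). It became 0.05 without knockdown array 1 and also without non-silencing array 2, and -0.41 without either of the other arrays. The probe sets 204781_s_at, 215719_x_at and 216252_x_at gave -0.18, -0.17 and -0.20, each lower within both numbers, while the dim 233820_at gave -0.04 with -0.21 and 0.14. Probe sets whose names end in _x_at may also bind other transcripts.

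**Figure D2:**
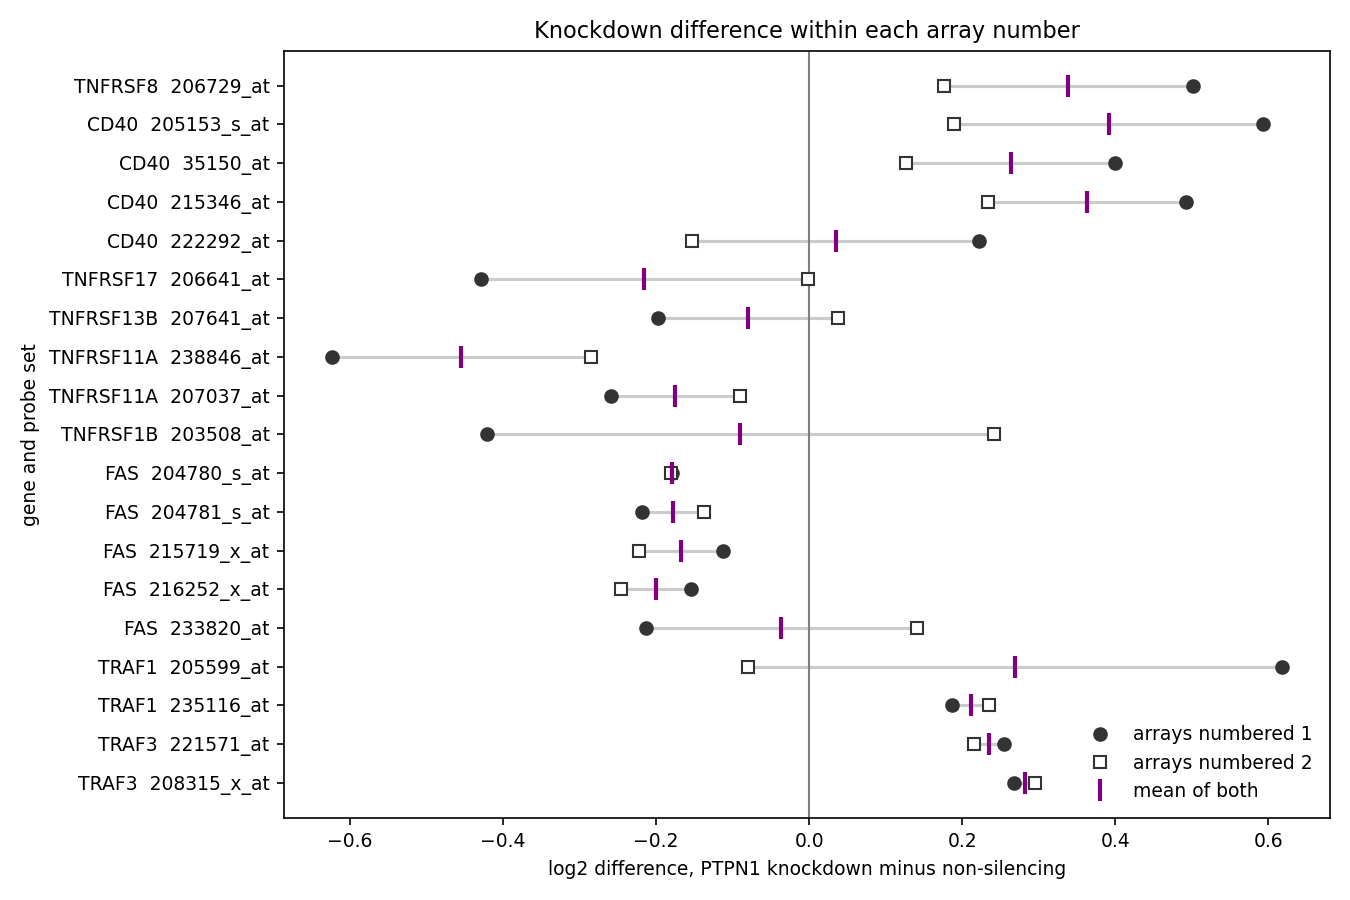
Log2 difference, PTPN1 knockdown minus non-silencing (horizontal axis), for the 19 member probe sets (rows) within arrays numbered 1 (filled circles) and within arrays numbered 2 (open squares), with their mean as a purple bar. TRAF3 lies between 0.22 and 0.30 in every case and 4 of 5 FAS probe sets between -0.25 and -0.11, whereas TRAF1 (205599_at) spans 0.62 to -0.08.

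Within the array numbers, 7 member probe sets were higher in knockdown in both (36.8% of the 19, against 27.7% of all probe sets) and 7 were lower in both (36.8%, against 28.5%). The 7 higher ones are those of TNFRSF8, TRAF3, 3 of 4 for CD40 and 1 of 2 for TRAF1. The 7 lower ones are 4 of 5 for FAS, both of TNFRSF11A and that of TNFRSF17, whose second difference was only -0.002. The remaining 5 had opposite signs. No test of the difference between the array numbers in this contrast was possible, since each number holds 1 array of a group.

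Among the adaptors, TRAF3 was the steadiest member. TRAF3 promotes the breakdown of NIK and so restrains the non-canonical NF-kB pathway. Its brighter probe set (221571_at) stood at 9.79 and 9.74 in the knockdown arrays, against 9.54 and 9.52 in the non-silencing arrays. The groups were apart, with an SD of 0.04 in knockdown and 0.01 in non-silencing (n = 2 each). The difference was 0.24 (SE 0.12, limma adjusted p = 1), a ratio of 1.18, and it lay between 0.21 and 0.26 when single arrays were left out. The second probe set (208315_x_at) read 8.40 and 8.18 in knockdown and 8.14 and 7.88 in non-silencing, apart as well, with a difference of 0.28 (SE 0.16) that was 0.27 and 0.30 within the numbers.

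The 250 bases before the start of TRAF3 are printed because TRAF3 was the member with the closest values and because a match to the NF-kB consensus lies next to its start. The sequence is RefSeq's, build GRCh38.p14, chr14:102777199-102777448, plus strand, and the capitals mark the match, which ends 23 bases before the start.
TRAF3: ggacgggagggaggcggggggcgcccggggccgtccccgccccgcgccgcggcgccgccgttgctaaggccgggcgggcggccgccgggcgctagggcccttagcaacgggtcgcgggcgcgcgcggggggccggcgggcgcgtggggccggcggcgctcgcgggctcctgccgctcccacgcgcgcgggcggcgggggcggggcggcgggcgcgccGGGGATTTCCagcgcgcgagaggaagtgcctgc

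The table of promoters held 12 start sites of 8 listed members, TRAF2 included, and none of CD40 or TNFRSF17. They were searched on both strands for 3 motifs: the NF-kB consensus, the STAT motif TTCNNNGAA and the AP-1 motif TGANTCA. Of all 35116 promoters of the same length, 9.96% held the first, 6.57% the second and 6.57% the third. Matches were found at 3 of the 12 start sites, the one of TRAF3 and a pair at different FAS starts, and no match overlapped another. The share of all promoters with any of the 3 motifs was not computed, so this count is not a result about the members. Of the 250 bases printed for TRAF3, 86.4% were G or C. The STAT motif was at none of the 12. The FAS matches, the only ones besides that of TRAF3, are shown with up to 10 bases on either side. They lie on the plus strand at chr10:88991264-88991293 (NF-kB consensus) and chr10:88990548-88990572 (AP-1), build GRCh38.p14, with the match in capitals. A match describes these letters, not a bound site.
FAS, NF-kB consensus: ggtcgctggaGGGGGACCCCggttggagag
FAS, AP-1: caagttgcTGAATCAatggagccct

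TRAF1, an adaptor that NF-kB is known to induce and that is abundant in Hodgkin cells, gave unequal probe sets. The brighter (205599_at) stood at 7.99 and 7.23 in the knockdown arrays, against 7.37 and 7.31 in the non-silencing arrays. Knockdown array 1 alone was high, so the mean difference of 0.27 (SE 0.26, limma adjusted p = 1) was 0.62 within number 1 and -0.08 within number 2, and it was -0.11 without knockdown array 1 and 0.65 without knockdown array 2. The dimmer probe set (235116_at), close to the median of all probe sets, read 5.24 and 5.31 in knockdown and 5.05 and 5.08 in non-silencing. There the groups were apart by a small margin, with a difference of 0.21 (SE 0.13) that was 0.19 and 0.24 within the numbers.

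For most member probe sets, as for most of all probe sets, the array-number difference was larger in size than the knockdown difference. In a limma fit with terms for group and number, 7 of the 19 member probe sets (36.8%) had an adjusted p under 0.05 for the array number, where 8.09% of all probe sets did. Several of these were probe sets of the same gene, which read the same RNA. Counted by brightest probe set, 2 of the 9 member genes (22.2%) passed, a share that was not computed over all genes. Calls were more frequent among brighter probe sets: of those at or above the median, 6 of 16 member probe sets (37.5%) passed in that fit, against 13.8% of all. Of the 7 member genes whose brightest probe set lay there, 2 (28.6%) passed at that probe set, again without a share over all genes. With the fit made on the probe sets at or above the median alone, 7 of the 16 member probe sets passed, against 5936 of all 27307. That is more of all probe sets than the 3770 called there in the fit over the whole array. The member count over all probe sets was 12 with a trended, robust variance and 0 in a linear model without moderation, which has 1 degree of freedom. The size of the number difference was above that of the group difference for 13 of 19 member probe sets (68.4%), against 60.4% of all probe sets. Its median size was 0.41 for the members and 0.14 for all probe sets.

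The receptors supplied all of these calls. TNFRSF11A was higher in the arrays numbered 2 at both probe sets, by 1.06 (SE 0.13, limma adjusted p = 0.00704) and 0.48 (limma adjusted p = 0.0491). FAS was higher in those arrays at 3 probe sets, by 0.80, 0.70 and 0.60, with limma adjusted p-values of 0.0104, 0.0157 and 0.0355, while its brightest probe set missed the threshold (0.46, limma adjusted p = 0.051). CD40 was called at 222292_at only (0.96, limma adjusted p = 0.0093), its other 3 probe sets lying between 0.35 and 0.38. TNFRSF8 was the only call that ran the other way, by -0.82 (SE 0.13, limma adjusted p = 0.0131). TRAF1 and TRAF3 had 0 of 4 probe sets called (1 at an unadjusted p under 0.05 in limma), with values from -0.41 to 0.05. The beta-actin 3' minus 5' signal given above moves with the array number too, and its part in these differences was not tested.

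**Figure D3:**
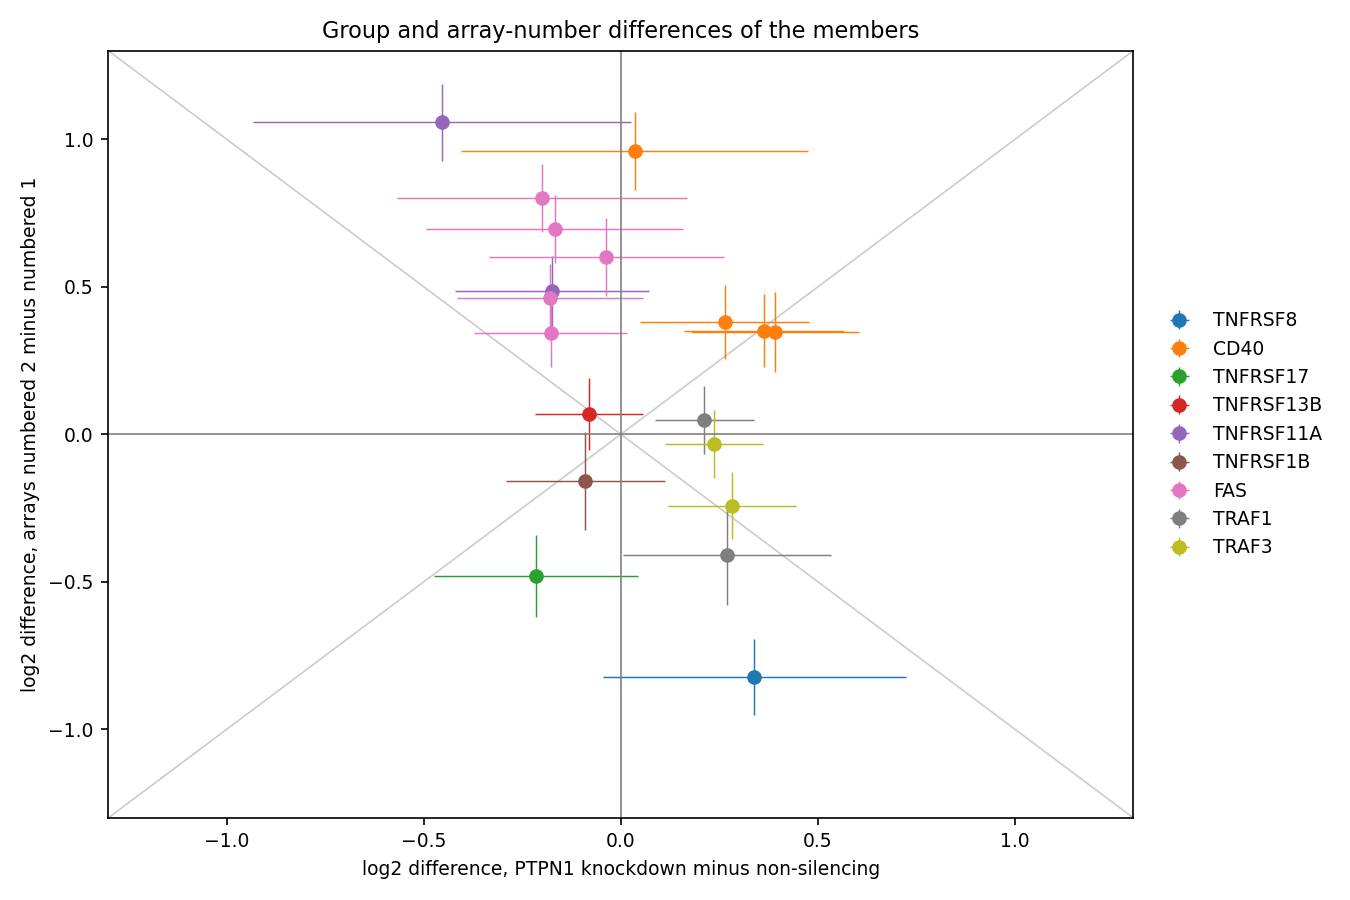
Log2 difference between PTPN1 knockdown and non-silencing (horizontal axis) against the log2 difference between arrays numbered 2 and numbered 1 (vertical axis) for the 19 member probe sets, coloured by gene, with limma standard errors as bars. Grey diagonals mark equal sizes. TNFRSF11A reaches 1.06 and TNFRSF8 -0.82 on the vertical axis, while TRAF3 stays between -0.24 and -0.03.

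The wider receptor family gave no call either. Of 21 other TNF receptors measured, 15 were at or above the median, as were 12601 of the 19775 named genes besides TNFRSF11A. In limma 0 passed in either direction, as did 0 of all probe sets (0 at an unadjusted p under 0.05, against 2.50% of all). The median difference was -0.02, against -0.005 over all probe sets. In this list 0 genes had the groups apart with knockdown higher and 3 with knockdown lower (14.3% of the 21, against 15.3% of all probe sets). TNFRSF4 (OX40, a costimulatory receptor) read 7.57 and 7.39 in knockdown and 7.85 and 7.63 in non-silencing (-0.26), TNFRSF21 (death receptor 6) read 7.74 and 8.00 in knockdown and 8.03 and 8.22 in non-silencing (-0.25), and TNFRSF18 (GITR) read 5.56 and 5.56 in knockdown and 5.64 and 5.90 in non-silencing (-0.21). The receptors of TRAIL that carry death domains, TNFRSF10A and TNFRSF10B, differed by 0.34 and 0.10 with overlapping groups, values looked up after they were seen in the list. TNFRSF10A was also lower in the arrays numbered 2, by -0.70 (limma adjusted p = 0.02).

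Of the other TRAF genes, TRAF6, which serves CD40 and the Toll-like receptors, read 7.48 and 7.47 in the knockdown arrays, against 7.36 and 7.41 in the non-silencing arrays. That is a difference of 0.10 with the groups apart, the only 1 of the 4 so placed (25%, against 13.4% of all probe sets). TRAF4 and TRAF7 differed by 0.23 and 0.23 with overlapping groups, and the dim TRAF5 by -0.05. In limma 0 of these 4 passed, as did 0 of all probe sets, and 0 had an unadjusted p under 0.05, against 2.50% of all.

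Signalling proteins next to the receptors lay close to 0 as a list, with a median difference of 0.005 over 24 measured genes. In limma 0 passed, as did 0 of all probe sets, and 0 had an unadjusted p under 0.05, against 2.50% of all. The groups were apart for 5 genes with knockdown higher (20.8% of the 24, against 13.4% of all probe sets) and 1 lower (4.17%, against 15.3%), and those with the largest differences were MAP3K5 (0.20), MAP3K14 (0.19) and CYLD (0.18). MAP3K14 encodes NIK, the kinase that TRAF3 restrains, and read 6.24 and 6.16 in knockdown and 5.94 and 6.09 in non-silencing. CYLD is a deubiquitinase that dampens NF-kB signalling. BIRC2 (0.20), CASP8 (-0.20), FADD (-0.03) and TRADD (-0.09), partners of the receptor complexes, had overlapping groups. TRAF3IP3, chosen after its values were seen, had the largest difference of the list at 0.61 (SE 0.33) and read 6.67 and 7.21 in knockdown and 5.92 and 6.75 in non-silencing, with the groups overlapping.

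Of 7 measured ligands of the member receptors, 2 had the groups apart with knockdown higher (28.6%, against 13.4% of all probe sets). Another 1 had them apart with knockdown lower (14.3%, against 15.3% of all). The 2 higher ones, LTA and TNFSF13B, were named by the fixed rule. The lower one, FASLG (-0.18), lay below the median of all probe sets. So did TNFSF11, which differed by -0.24 with overlapping groups. LTA, the lymphotoxin that binds TNF receptors, read 9.58 and 9.07 in the knockdown arrays, against 8.76 and 8.06 in the non-silencing arrays, a difference of 0.91 (SE 0.29, limma adjusted p = 1) with the groups apart. It was the 1 ligand of 7 with an unadjusted p under 0.05 in limma, where 2.50% of all probe sets had one. TNF, a ligand of TNF receptors 1 and 2 looked up after its values were seen, read 8.67 and 7.54 in knockdown and 7.87 and 6.82 in non-silencing. Its difference was 0.76 (SE 0.49, limma adjusted p = 1), with 0.80 and 0.72 within the numbers, but the groups overlapped because TNF was lower in the arrays numbered 2, by -1.09 (limma adjusted p = 0.00488). TNFSF13B, which encodes BAFF, read 9.47 and 9.48 in knockdown and 9.47 and 9.33 in non-silencing, a difference of 0.08. Within number 1 it differed by only 0.001, so its groups were barely apart. TNFSF8, the ligand of CD30, was looked up for its pairing with TNFRSF8: it read 4.86 and 7.09 in knockdown and 5.74 and 6.47 in non-silencing, a difference of -0.13 with opposite signs within the numbers (-0.88 and 0.62). TNFSF8 was higher in the arrays numbered 2 by 1.48 (limma adjusted p = 0.0269), whereas its receptor was lower there.

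**Figure D4:**
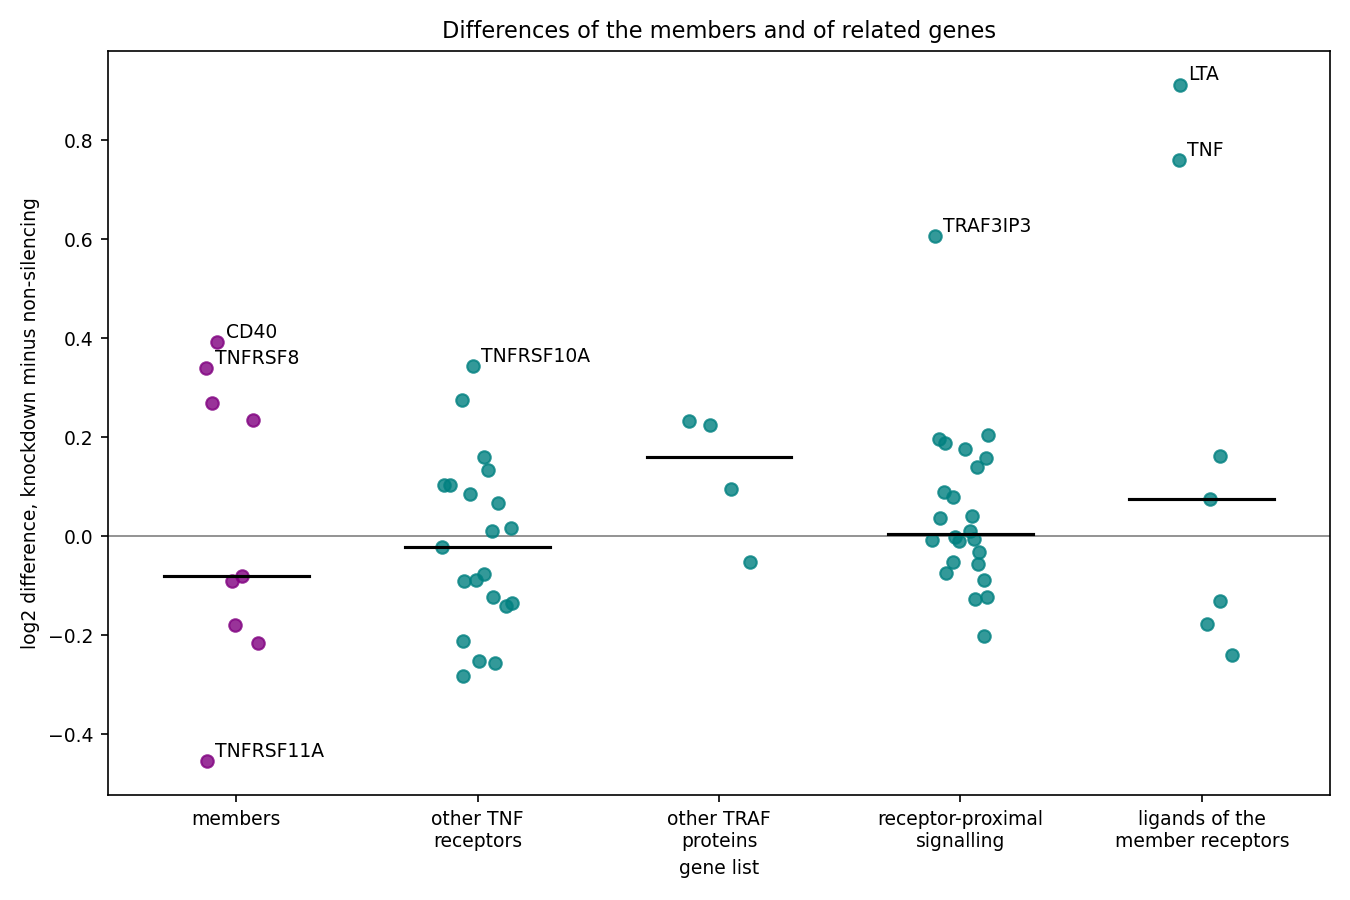
Log2 difference, PTPN1 knockdown minus non-silencing (vertical axis), of 1 probe set per gene (the brightest) for the members and 4 lists of related genes (horizontal axis). Each point is a gene, black bars are list medians, and genes at 0.3 or more in size are named. LTA stands at 0.91 and TNFRSF11A at -0.45, and the median of the members is -0.08.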

How the data were processed

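Per the submitters' processing notes the authors used RMA (version not given in the sources used here) for the deposited log2 expression values, from biotinylated cRNA of a 2-cycle amplification, per the labels' protocols. RMA normalizes arrays by quantiles, so a change in total RNA cannot be seen, and it compresses differences of dim probe sets. Of 54675 probe sets, 62 controls were left out; of the rest, 41091 had 1 gene symbol, 1801 several and 11721 none in the platform table. Knockdown minus non-silencing was fitted in limma 3.58.1 (R 4.3.3) over all probe sets, two-sided, with Benjamini-Hochberg adjustment at 0.05, and array numbers in a fit with group and number. A gene's lead probe set is its brightest; of each related list, up to 3 genes with the largest difference, at or above the median and with groups apart, were named. Members and lists were chosen with earlier results of these data known. Symbols and promoters came from RefSeq GRCh38.p14.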

Additional observations from a re-analysis of the deposited data

How the results depend on the processing

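No member probe set passed the limma threshold for knockdown against non-silencing under any alternative run, and quantile normalization or centring on array medians turned no member's direction. Leaving out single arrays ranged TNFRSF8 from -0.15 to 0.83, TNFRSF11A from -1.07 to 0.16, FAS from -0.41 to 0.0519, TRAF1 from -0.11 to 0.65, TNFRSF17 from -0.56 to 0.13, TNFRSF13B from -0.17 to 0.0125 and TNFRSF1B from -0.33 to 0.16; CD40 and TRAF3 stayed above 0. Over all probe sets, calls ranged from 0 to 1 without single arrays. The labels tie an array number to no shared batch and there are 2 pairs, so the samples share only a number; the deviations of same-numbered arrays from their group means correlated at 0.593 over probe sets. With the number as a replicate block 164 of all probe sets passed, 0 of them members (5 at an unadjusted p under 0.05 in limma). LTA did (limma adjusted p = 0.035), as did PTPN1 at its brightest probe set (limma adjusted p = 0.0153). For arrays numbered 2 against 1, calls over all probe sets were 4417 as reported, 7933 with a trended robust variance and 0 without moderation, and member calls were 7, 12 and 0. Leaving out an array there leaves no residual degrees of freedom. TNFRSF17 and TNFRSF1B had no value with the filter on dim probe sets. Member probe sets apart and higher numbered 5, with 4 after quantile normalization, an alternative chosen after seeing the data. The deposited values give no signal over background, and 3 member probe sets lay below the median of all.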

Other observations

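Among the 6 measured B cell markers, 2 read highest in non-silencing array 1, as TNFRSF17 did, by a clear margin, and they were chosen after their values were seen. POU2AF1, a coactivator of B cell transcription, read 3.94 and 4.01 in knockdown and 5.18 and 3.73 in non-silencing. MS4A1, the gene of CD20, read 4.40 and 4.41 in knockdown and 5.20 and 4.46 in non-silencing. Of the other 4, BLK and CD79A were highest in non-silencing array 2. CD22 and CD79B were also highest in non-silencing array 1, but by small margins. CD22 read 5.94 and 5.95 in knockdown and 6.12 and 6.07 in non-silencing. CD79B read 5.04 and 5.13 in knockdown and 5.20 and 5.12 in non-silencing. The mean of all 6 was 5.40 and 5.45 in knockdown and 5.81 and 5.54 in non-silencing, and without POU2AF1 and MS4A1 it was 6.02 and 6.07 in knockdown and 6.12 and 6.26 in non-silencing. The myeloid marker CD14 followed the array number instead, with 7.63 and 6.51 in knockdown and 7.28 and 6.21 in non-silencing.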
